A study of Mus musculus with 14 samples.

Results

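The expression profiles described here come from 4 arrays of a 14-array study in HL-1 cells, a mouse line of atrial heart muscle that keeps features of cardiomyocytes in culture. They are the arrays on which the long non-coding RNA Airn lay at least 0.8 log2 units below the mean of the scrambled control, and the measured Airn level itself chose them. The control, siScramble, was measured on 6 arrays. The reagents siAirn-001.1 and siAirn-001.2 were measured on 4 arrays each, and the 4 chosen arrays are replicates 3 and 4 of both reagents. All cells grew in medium with 0.1 mM norepinephrine and received siRNA at 10 nM with a lipid transfection reagent. The labels number the arrays of a group as biological replicates without saying whether they came from separate cultures or days, so p-values measure the spread between these arrays, which may be technical. How the 2 siAirn reagents differ, and how long after transfection the cells were harvested, was not given in the sources used here.

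Airn is an imprinted transcript of the paternal allele that runs antisense across the Igf2r promoter. In mouse embryonic and extraembryonic tissues its transcription silences Igf2r on that chromosome, and in the placenta also the more distant transporter genes Slc22a2 and Slc22a3. The title of the series places the study in a line of work on Airn isoforms in cardiomyocyte function.

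Airn (transcript cluster 10441787) had log2 levels of 10.94 and 10.93 on siAirn-001.1 replicates 3 and 4, and of 10.71 and 10.85 on siAirn-001.2 replicates 3 and 4. On the siScramble arrays the lowest value was 11.78, the median 12.00 and the highest 12.16. The 4 arrays held 48.4%, 48.3%, 41.4% and 45.5% of the mean siScramble signal, so every one of them was under 50% of the control level. Their mean was 10.86 ± 0.11 (SD, n = 4) against 11.98 ± 0.13 (SD, n = 6), a difference of -1.13 ± 0.08 (SE). These values chose the arrays and are given as a description. The member closest to the threshold lay 1.05 log2 units below the siScramble mean, and the siAirn array just outside it lay 0.31 below. The other 4 siAirn arrays, replicates 1 and 2 of each reagent, measured 11.89, 11.82, 11.93 and 11.67, or 80.5% to 96.2% of the siScramble mean.

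The low Airn level coincides with the replicate number. Both arrays labelled 3 and both labelled 4 were chosen and none labelled 1 or 2, so what goes with Airn and what goes with replicates 3 and 4 cannot be told apart. The siScramble arrays with those numbers had Airn at 11.78 and 11.98, against 11.90 to 12.16 on the other controls. The value of siScramble 3 was thus the lowest control.

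**Figure D1:**
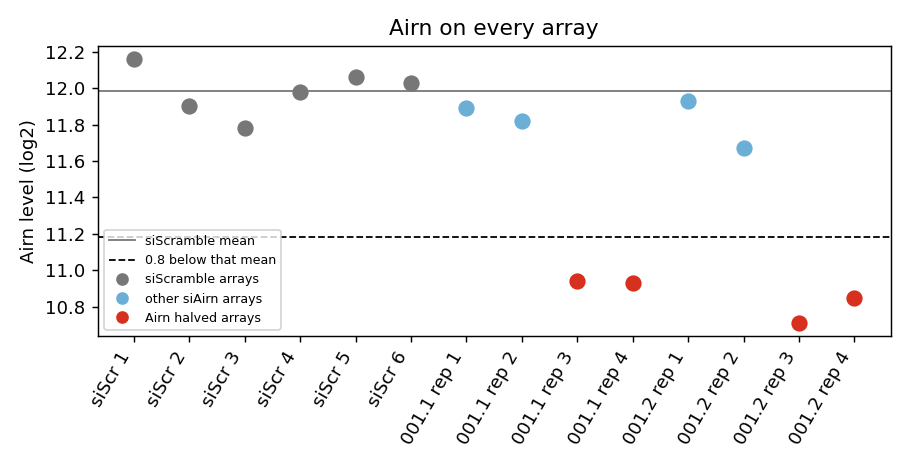
Log2 level of Airn (vertical axis) on each of the 14 arrays (horizontal axis), with 1 point per array, the siScramble mean as a solid line and the threshold of the rule as a dashed line. The 4 chosen arrays lie between 10.71 and 10.94, and the remaining 10 lie between 11.67 and 12.16.

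Over all 20193 genes the 4 arrays did not form 1 cluster. In a principal component analysis the first component took 29.3% of the variance and the second 18.3%. siAirn-001.1 replicates 3 and 4 stood at 26.6 and 21.1 on the second component, above every other array. siAirn-001.2 replicates 3 and 4 stood at 14.8 and 15.6 on the first component, beside siScramble 1 to 4, which lay between 11.5 and 13.7. siScramble 5 and 6 stood apart from the other controls, at -4.5 and -9.4, towards the other siAirn arrays at -9.8 to -23. Euclidean distances between arrays of the 2 reagents among the 4 were 38.4 to 47.1 log2 units, and those of the 4 arrays to siScramble were 29.5 to 46.2. The distance was 34.9 between the 2 chosen siAirn-001.1 arrays, near the lowest between the reagents, and 23.6 between the 2 chosen siAirn-001.2 arrays. Within siScramble distances were 18.1 to 38. The main counts below are therefore also given without siScramble 5 and 6, and those of the gene lists where that moves them by over 1.5-fold.

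**Figure D2:**
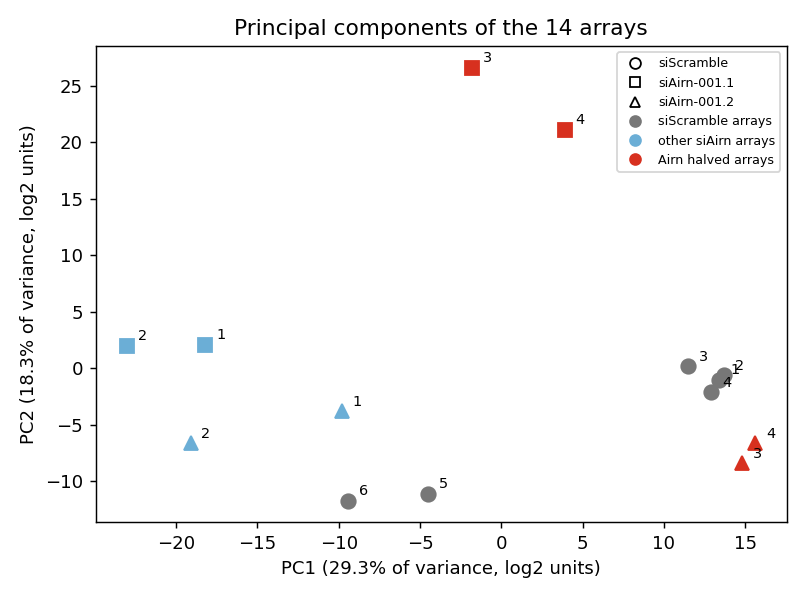
First and second principal components of the 14 arrays over all genes, in log2 units, with the replicate number beside each point, shape for the group and colour for the role. The chosen siAirn-001.1 arrays lie at 21.1 and 26.6 on the vertical axis, and the chosen siAirn-001.2 arrays lie at 14.8 and 15.6 on the horizontal axis near siScramble 1 to 4.

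The labelled cell type was checked against markers. Of 18 measured atrial cardiomyocyte markers, 16 lay above the median gene of the siScramble arrays (7.49), among them Myl7, the atrial regulatory light chain, at 12.49 to 13.43, Tnnt2, cardiac troponin T, at 13.23 to 13.50, and the natriuretic peptide gene Nppa at 8.87 to 9.70. Sln, which encodes sarcolipin, an atrial inhibitor of the calcium pump, and the connexin gene Gja5 were below it, at means of 6.24 and 6.47. Of the markers of other cell types, 5 of 11 for fibroblasts, 2 of 11 for endothelium, 5 of 10 for smooth muscle and pericytes, 1 of 11 for immune cells, 3 of 10 for epicardium and 0 of 7 for neurons and glia lay above that median. The smooth muscle marker Acta2 was at 13.94 to 14.02, above the 3 atrial markers named first. None of those markers was apart from siScramble in the 4 arrays, in the sense defined next, which held for 0.401% of all genes. A probe's brightness depends on its sequence, so these positions are a coarse check.

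A gene is called apart here where all 4 arrays lie above, or all 4 below, every siScramble array and the means differ at least 1.5-fold. This contrast supplied the rule that chose the arrays, so the counts are a description with no p-value. Of 20193 genes, 41 (0.203%) were apart and higher and 40 (0.198%) apart and lower, 81 (0.401%) in all. Lying outside the siScramble range with no minimum fold held for 534 genes (2.64%) above and 561 (2.78%) below. Without siScramble 5 and 6 the apart counts were 58 and 57, and with the arrays centred on their medians they were 54 and 31. The median difference of all genes was -0.013 and the median SE 0.077. The other 4 siAirn arrays, set against the same controls, had 137 genes (0.678%) apart and higher and 115 (0.57%) apart and lower.

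Genes of the Airn neighbourhood other than Airn were not apart. Of 18 measured genes of the locus, Airn, which chose the arrays, was the 1 that was. Only 0.401% of all genes were apart, so a list this short says little on the neighbours. Igf2r, the receptor that carries IGF2 to lysosomes, was at 6.81 and 6.92 on the siAirn-001.1 arrays and 6.81 and 6.85 on the siAirn-001.2 pair, against 6.81 to 6.97 with siScramble (median 6.91). Replicate 4 of both reagents lay within the control range. Replicate 3 of both lay at its lower edge, at 6.8108 and 6.8094 against a lowest control of 6.8135. The difference was -0.06 ± 0.06 (SE). Slc22a2 and Slc22a3, which encode organic cation transporters, differed by -0.10 ± 0.09 and -0.01 ± 0.07 (SE). The siScramble means of Igf2r, Slc22a2 and Slc22a3 were 6.91, 6.57 and 6.60, below the median gene (7.49). In the labelled contrast of all 8 siAirn arrays against siScramble, limma did not call Igf2r (-0.09 ± 0.05 SE, adjusted p = 0.439) or Airn (-0.64 ± 0.19 SE, adjusted p = 0.0754). Acat2, a cytosolic thiolase gene of the locus, differed between the reagents, by -0.70 ± 0.11 (SE, limma adjusted p = 0.00197) with siAirn-001.2. It was the 1 of the 18 called lower, where 5.39% of all genes were.

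Interferon-stimulated genes made up the largest apart group among the 46 lists. Type I interferon signals through JAK kinases to a transcription factor complex that holds STAT2 and IRF9, which binds interferon-stimulated response elements and drives antiviral genes. Cytosolic sensors of double-stranded RNA, which can recognise some synthetic RNAs, act upstream of interferon. Of 52 measured interferon-stimulated genes, 9 were apart and higher and 0 apart and lower, against 0.203% and 0.198% of all genes. Among them are Usp18, Irf7, Oasl2, Ifit1, Lgals3bp, Irf9, Ube2l6 and Stat2. The median difference of the list was 0.31, and that of all genes -0.013. The count was 12 without siScramble 5 and 6.

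Usp18, a protease that removes ISG15 from proteins and restrains interferon signalling, was at 9.81 and 10.11 on the siAirn-001.1 arrays and 8.78 and 8.98 on the siAirn-001.2 pair. With siScramble it ranged from 7.92 to 8.09 with a median of 7.99. It was the gene furthest above siScramble, 2.69-fold on average, and its siAirn-001.1 arrays were the higher pair. Irf7, the transcription factor that amplifies interferon induction, was at 8.51 and 8.85 on the siAirn-001.1 arrays and at 7.84 and 7.70 on the siAirn-001.2 pair, against 6.99 to 7.32 (median 7.09). Ifit1, which binds foreign RNA caps, was at 8.14 and 8.55 on the siAirn-001.1 arrays, and at 6.73 and 6.77 on the siAirn-001.2 pair, against 6.25 to 6.70 (median 6.61). The siAirn-001.2 values of Ifit1 cleared the highest control by a few hundredths of a log2 unit, while the siAirn-001.1 values were far above it. Oasl2, of the oligoadenylate synthetase family, was at 9.28, 9.55, 8.73 and 8.71 in the same order, against 7.81 to 8.34 (median 8.07).

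Irf9 and Stat2, which encode subunits of the response element complex, were both apart. Irf9 was at 8.86 and 8.88 on the siAirn-001.1 arrays and 8.50 and 8.55 on the siAirn-001.2 pair, against 7.80 to 8.29 (median 7.94). Stat2 was at 8.90 and 9.15, and 8.55 and 8.66, against 8.08 to 8.39 (median 8.22). Stat2 was picked out after its values were seen. Differences from siScramble were 0.70 ± 0.09 for Irf9 and 0.59 ± 0.08 for Stat2 (SE). Between the reagents, limma called Stat2 (-0.42 ± 0.12 SE, adjusted p = 0.0447, lost in 6 of 10 fits with 1 array left out, up to 0.26 without siAirn-001.2 replicate 3) and did not call Irf9 (-0.35 ± 0.14 SE, adjusted p = 0.159). Lgals3bp, a secreted galectin-binding protein, and Ube2l6, the conjugating enzyme for ISG15, were 1.70-fold and 1.62-fold above siScramble.

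Other interferon-induced genes lay at the control level. Mx1, Rsad2, Ifit3, Cmpk2 and Isg15, which encode antiviral effectors and a ubiquitin-like modifier, differed by -0.02 ± 0.08, 0.03 ± 0.07, -0.04 ± 0.19, -0.04 ± 0.06 and 0.10 ± 0.09 (SE). The interferon genes Ifnb1 and Ifna4 differed by -0.15 ± 0.06 and -0.03 ± 0.07 (SE). Mx1, Cmpk2, Ifna4, Ifnb1, Isg15 and Rsad2 had siScramble means of 4.90, 5.05, 5.69, 5.89, 6.09 and 6.30, below the median gene, while that of Ifit3 was 8.68. These genes were picked out after their values were seen.

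The reagents differed within this list. With siAirn-001.1 the median difference was 0.53 and 24 members were apart, and with siAirn-001.2 the median was 0.13 and 5 were apart, and no member was apart and lower with either. Of all genes, 1.13% were apart and higher and 1.22% lower with siAirn-001.1 alone, and 0.475% and 0.981% with siAirn-001.2 alone. In the test between the reagents, limma called 21 of 52 members lower with siAirn-001.2 and 0 higher, while 5.39% of all genes were lower and 4.41% higher. The count of lower members was 12 without siAirn-001.1 replicate 4 or siAirn-001.2 replicate 3, and without siScramble 5 and 6 it was 24, with 3 higher. Ifit1 was lower by 1.59 ± 0.15 (SE, limma adjusted p = 9.33e-05), Usp18 by 1.08 ± 0.11 (adjusted p = 0.000158) and Irf7 by 0.91 ± 0.13 (adjusted p = 0.00109). Rtp4, an interferon-induced receptor transporter picked out after its values were seen, was at 6.92 and 7.46 on the siAirn-001.1 arrays and at 6.02 and 5.87 on the siAirn-001.2 pair, which is inside or near the control range of 5.62 to 5.89. It was lower with siAirn-001.2 by 1.25 ± 0.15 (SE, limma adjusted p = 0.000339).

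The mean of the list by array, relative to siScramble, was 0.47 and 0.62 on the siAirn-001.1 arrays and 0.15 and 0.19 on the siAirn-001.2 pair. The siScramble arrays lay between -0.04 and 0.08, and the other 4 siAirn arrays were at 0.18, 0.14, 0.05 and 0.01. In the labelled contrast of all siAirn arrays against siScramble, which includes the 4 arrays and is no independent support, 11 members rose and 0 fell, against 2.15% and 1.97% of all genes (7 rose without siScramble 3 and 6 without siScramble 4). Among them were Usp18 (0.94 ± 0.22 SE, limma adjusted p = 0.0228), Lgals3bp (0.63 ± 0.09, adjusted p = 0.000786), Irf9 (0.55 ± 0.09, adjusted p = 0.00311), Ube2l6 (0.48 ± 0.11, adjusted p = 0.0199) and Stat2 (0.44, adjusted p = 0.0124). Usp18 lost its call without any 1 of siScramble 1 to 4 (adjusted p up to 0.061), and Ube2l6 without siScramble 3 or 4 (up to 0.0578). Irf7 (adjusted p = 0.087), Oasl2 (0.137) and Ifit1 (0.0998) did not pass.

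Among 23 double-stranded RNA sensors and effectors, 3 were apart and higher and 0 lower, against 0.203% and 0.198% of all genes, namely Irf7, Oasl2 and Oas1b, the first 2 of them also members of the interferon list. The list's median difference was 0.21. Oas1b, an oligoadenylate synthetase, was at 7.27, 7.69, 7.40 and 7.65 on the 4 arrays, 0.60 ± 0.10 (SE) above siScramble, and rose in the labelled contrast (0.45, limma adjusted p = 0.0216, up to 0.0665 without any 1 of siScramble 1, 2 and 3). Ddx58, which encodes the sensor RIG-I, was at 10.50 and 10.70 on the siAirn-001.1 arrays and 10.09 and 10.20 on the siAirn-001.2 pair, 0.56 ± 0.07 (SE) above siScramble and short of the 1.5-fold minimum. Tlr3, the endosomal sensor, was 0.44 ± 0.08 (SE) above. Both were lower with siAirn-001.2 than with siAirn-001.1, Ddx58 by 0.45 ± 0.11 (SE, limma adjusted p = 0.0173, up to 0.142 without any 1 of siAirn-001.1 replicate 4 and siAirn-001.2 replicates 3 and 4) and Tlr3 by 0.63 ± 0.12 (adjusted p = 0.00481). In all, 8 members were lower (5 without siAirn-001.2 replicate 4) and 1 higher (0 without siAirn-001.1 replicate 3 or siAirn-001.2 replicate 3) with siAirn-001.2, against 5.39% and 4.41% of all genes. Immune cell markers did not move with these genes: their mean was between -0.10 and 0.01 on the 4 arrays, inside the siScramble range of -0.10 to 0.06. Only 1 of the 11 lay above the median gene (7.49), and their median with siScramble was 6.21. At such low levels the list says little.

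The response element has a short core that can be read from promoter sequence. The letters GAAA, any 2 bases and GAAA again (TTTC, any 2 bases and TTTC on the other strand) were searched on both strands in RefSeq windows from 250 bases before to 50 after each gene's start (GRCm38.p6). This motif was in 3.99% of the 27025 genes with a window. It was in 2 of the 7 apart interferon-stimulated genes with a window, Ifit1 and Stat2, and in 16 of 34 list members that were not apart and had one. The 250 bases upstream of 3 apart genes are shown because these genes were high together with or without the motif. They are Ifit1 (chr19:34640639-34640888, plus strand, motifs beginning at -104 and -85), Stat2 (chr10:128270248-128270497, plus strand, motif at -222) and Irf7 (chr7:141266425-141266674, minus strand, no match). They run 5′ to 3′ on the gene's strand, and capitals mark the motif.
Ifit1: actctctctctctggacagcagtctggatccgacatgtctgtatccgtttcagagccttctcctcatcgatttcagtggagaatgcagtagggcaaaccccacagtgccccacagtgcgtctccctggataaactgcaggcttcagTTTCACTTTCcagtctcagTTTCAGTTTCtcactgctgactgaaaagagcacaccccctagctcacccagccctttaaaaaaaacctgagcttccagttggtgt
Stat2: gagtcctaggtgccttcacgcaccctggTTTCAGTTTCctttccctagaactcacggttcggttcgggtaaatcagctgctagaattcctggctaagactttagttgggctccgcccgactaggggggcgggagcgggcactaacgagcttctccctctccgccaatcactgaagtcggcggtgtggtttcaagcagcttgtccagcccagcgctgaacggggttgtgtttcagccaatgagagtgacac
Irf7: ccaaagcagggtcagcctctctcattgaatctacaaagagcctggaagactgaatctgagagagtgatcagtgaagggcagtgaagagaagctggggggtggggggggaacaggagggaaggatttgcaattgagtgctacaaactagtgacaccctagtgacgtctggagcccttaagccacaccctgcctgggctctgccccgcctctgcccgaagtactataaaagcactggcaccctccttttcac
A match is a stretch of letters and not a measured binding site, and its absence from a window says nothing of the factor.

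**Figure D3:**
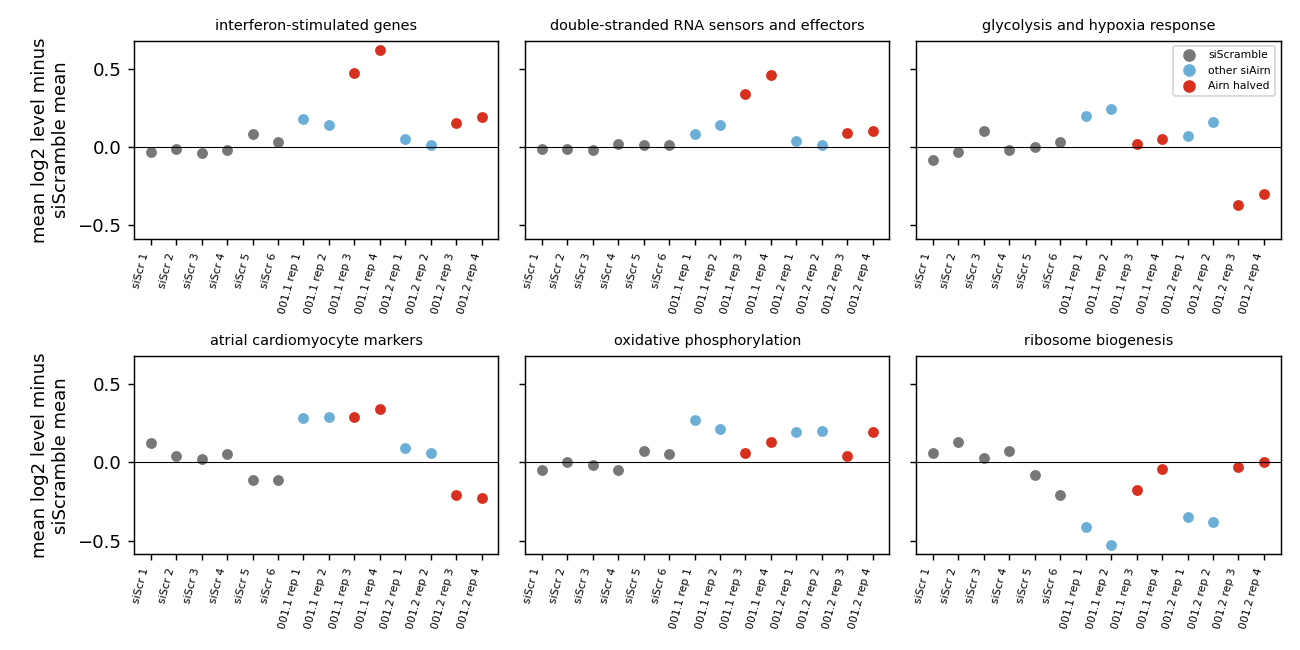
Mean over the measured members of 6 gene lists on each array, as log2 level minus the siScramble mean of each gene (vertical axes), with 1 point per array. For interferon-stimulated genes the chosen siAirn-001.1 arrays lie at 0.47 and 0.62 and the chosen siAirn-001.2 arrays at 0.15 and 0.19, and for glycolysis and hypoxia response genes the latter lie at -0.37 and -0.30.

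Outside the interferon response, the genes apart and higher included metabolic, ribosomal and membrane genes. Ckmt1, the mitochondrial creatine kinase, was at 9.61 and 9.85 on the siAirn-001.1 arrays and 8.50 and 8.40 on the siAirn-001.2 pair, against 7.56 to 8.11 (median 7.98), 2.30-fold above siScramble. It was lower with siAirn-001.2 by 1.28 ± 0.18 (SE, limma adjusted p = 0.000905). Shmt2, the mitochondrial serine hydroxymethyltransferase of folate metabolism, was at 11.07, 10.97, 11.08 and 11.11, against 10.09 to 10.32 (median 10.19). Its 4 values lay close together and the reagents did not differ detectably (0.07 ± 0.10 SE, limma adjusted p = 0.806). Mrpl21, of the mitochondrial ribosome, was at 8.86, 8.96, 8.98 and 9.08, against 7.91 to 8.36 (median 8.29). Pno1, which acts in assembly of the small ribosomal subunit, was at 9.88, 10.11, 10.12 and 10.25, against 9.02 to 9.60 (median 9.27).

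Several of these were also high on the siAirn arrays with near-control Airn. The other 4 siAirn arrays differed from the same siScramble arrays by 0.57 for Shmt2, 0.70 for Mrpl21 and 0.86 for Shisa6, which encodes an AMPA receptor auxiliary protein and was 0.75 ± 0.08 (SE) above siScramble in the 4 arrays. Kcnj3, a subunit of the atrial acetylcholine-gated potassium channel, was 0.59 ± 0.08 (SE) above in the 4 arrays and 1.03 in the other 4. Atp6v0e2, a proton pump subunit, was 0.68 ± 0.09 and 0.79, and the adenosine receptor gene Adora1 0.59 ± 0.08 and 0.48. In the labelled contrast all 6 rose, with limma adjusted p-values of 0.000182 for Shmt2, 0.000122 for Mrpl21, 0.000182 for Shisa6, 0.000429 for Kcnj3, 0.000119 for Atp6v0e2 and 0.000429 for Adora1. Each passed whichever of the 14 arrays was left out, and with a replicate block in the fit (limma adjusted p up to 0.00235). The contrast includes the 4 arrays and is no independent support.

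Some other apart and higher genes differed less from siScramble on siAirn replicates 1 and 2. Plcxd2, a phospholipase C domain gene, was 0.85 ± 0.08 (SE) above siScramble in the 4 arrays and 0.01 in the other 4. Sprr1a, a cornified envelope precursor that stressed cardiomyocytes also express, was 0.79 ± 0.08 above and -0.04 in the other 4. Both were higher with siAirn-001.2, Plcxd2 by 0.53 ± 0.12 (SE, limma adjusted p = 0.0132) and Sprr1a by 0.64 ± 0.12 (adjusted p = 0.00604). The Plcxd2 call was lost without siAirn-001.1 replicate 3 or either siAirn-001.2 array (adjusted p up to 0.106), and that of Sprr1a without siAirn-001.2 replicate 3 (0.0732). Timp1, an inhibitor of matrix metalloproteases, differed by 0.62 ± 0.15 and 0.21, and E2f2, a cell cycle transcription factor, by 0.62 ± 0.08 and 0.19. Timp1 was lower on siScramble 5 and 6 than on the other controls (8.64 and 8.63). The defensin gene Defb4 was at 6.78, 5.88, 6.18 and 6.14 against 5.12 to 5.58 (median 5.44), with siAirn-001.1 replicates 1 and 2 also above the controls at 6.22 and 5.77, and defensins form a multigene family whose probes may be shared.

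After Adamts8, Airn was the apart gene furthest below siScramble. Adamts8, a secreted metalloprotease, was at 8.23 and 8.22 on the siAirn-001.1 arrays and 8.35 and 8.35 on the siAirn-001.2 pair, against 9.04 to 9.88 (median 9.44), 2.25-fold lower. The 4 arrays were close together and all under the lowest control, while the other 4 siAirn arrays differed by -0.40. Hist2h3c2-ps was as far below on average (-1.17 ± 0.19 SE) but is not apart, since siAirn-001.2 replicate 4 lay above every control. Itga8, the alpha 8 integrin subunit, was at 6.81, 7.22, 7.58 and 7.43, against 7.90 to 8.69 (median 8.43), and the other 4 siAirn arrays were low too (-1.01). Both fell in the labelled contrast, Adamts8 by 0.78 ± 0.18 (SE, limma adjusted p = 0.0213, and 0.0589 without siScramble 4) and Itga8 by 1.06 ± 0.11 (adjusted p = 0.000122).

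Integrin and proteoglycan genes were among those apart and lower. Of 26 integrin subunits 2 were apart and lower and 0 higher, Itga8 and the beta 3 subunit Itgb3. Of 16 small leucine-rich proteoglycans 2 were apart and lower and 0 higher, Prelp and Fmod, which bind collagen. Of all genes, 0.198% were apart and lower and 0.203% apart and higher. The medians of both lists were -0.06 and -0.05. Itgb3 was at 8.32 and 8.44 on the siAirn-001.1 arrays and 7.49 and 7.77 on the siAirn-001.2 pair, against 8.72 to 9.14 (median 8.87). Prelp was at 7.12, 7.04, 7.54 and 7.67 against 8.02 to 8.55 (median 8.30), and Fmod at 7.47, 7.53, 7.23 and 7.09 against 7.63 to 8.40. On the other 4 siAirn arrays Prelp was nearly as low as on the 4 (-0.89 against -0.95) and Fmod was lower (-1.01 against -0.69). In the labelled contrast Itgb3 fell by 0.61 ± 0.14 (SE, limma adjusted p = 0.0193), Prelp by 0.92 ± 0.08 (adjusted p = 2.52e-05) and Fmod by 0.85 ± 0.13 (adjusted p = 0.00126). Itgb3 lost its call without siScramble 1 or 3 (adjusted p up to 0.0506).

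Further apart and lower genes had varied roles. Igfbp4, a binding protein of insulin-like growth factors, was at 10.15, 10.06, 10.17 and 9.85 against 10.69 to 10.94, and fell in the labelled contrast by 0.64 ± 0.10 (SE, limma adjusted p = 0.00133). Adra2b, an alpha-2 adrenergic receptor, was at 8.11, 8.20, 8.29 and 8.21 against 8.75 to 9.13 (median 9.01), and fell by 0.79 ± 0.08 (adjusted p = 5.53e-05). The cells were grown with norepinephrine, a ligand of that receptor, in all groups. Nkain2, which interacts with the sodium pump, fell by 0.60 ± 0.12 (adjusted p = 0.0124), Sytl2, of vesicle transport, by 0.69 ± 0.07 (adjusted p = 3.9e-05) and the thioesterase Them5 by 0.86 ± 0.14 (adjusted p = 0.00302). Their differences in the 4 arrays were -0.89 ± 0.07, -0.79 ± 0.06 and -0.76 ± 0.14 (SE). With siScramble 3 and 4 as the only controls they were -0.77, -0.76 and -0.51. Car5b, a mitochondrial carbonic anhydrase, was at 6.26 to 6.81 on the 4 arrays, but its siScramble values were 6.99 to 7.20 on arrays 1 to 4 and 7.97 and 7.80 on arrays 5 and 6. Against siScramble 3 and 4 alone its difference went from -0.74 to -0.41.

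A further group was low on the 4 arrays and at or above the control level on the other siAirn arrays. Fgf7, a growth factor for epithelia, was at 8.20, 8.42, 8.05 and 8.55 against 8.91 to 9.24 (median 9.15), a difference of -0.82 ± 0.10 (SE), and the other 4 siAirn arrays were above the controls by 0.56. Pdk1, the kinase that restrains pyruvate entry into mitochondria, differed by -0.64 ± 0.12 in the 4 arrays and 0.55 in the other 4. Casp6, an executioner caspase, was at 7.93, 8.02, 8.41 and 8.71 against 9.01 to 9.42 (median 9.13), with -0.90 ± 0.09 and -0.09. Myom1, which encodes myomesin of the sarcomere M band, was at 9.69, 9.94, 9.67 and 9.61 against 10.18 to 10.62 (median 10.47), with -0.71 ± 0.10 and 0.01. None of these 4 passed in the labelled contrast (limma adjusted p = 0.937, 0.979, 0.143 and 0.286). On average, replicates 1 and 2 were above siScramble for Fgf7 and Pdk1 and near it for Casp6 and Myom1. In these genes, too, Airn level and replicate number go together.

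**Figure D4:**
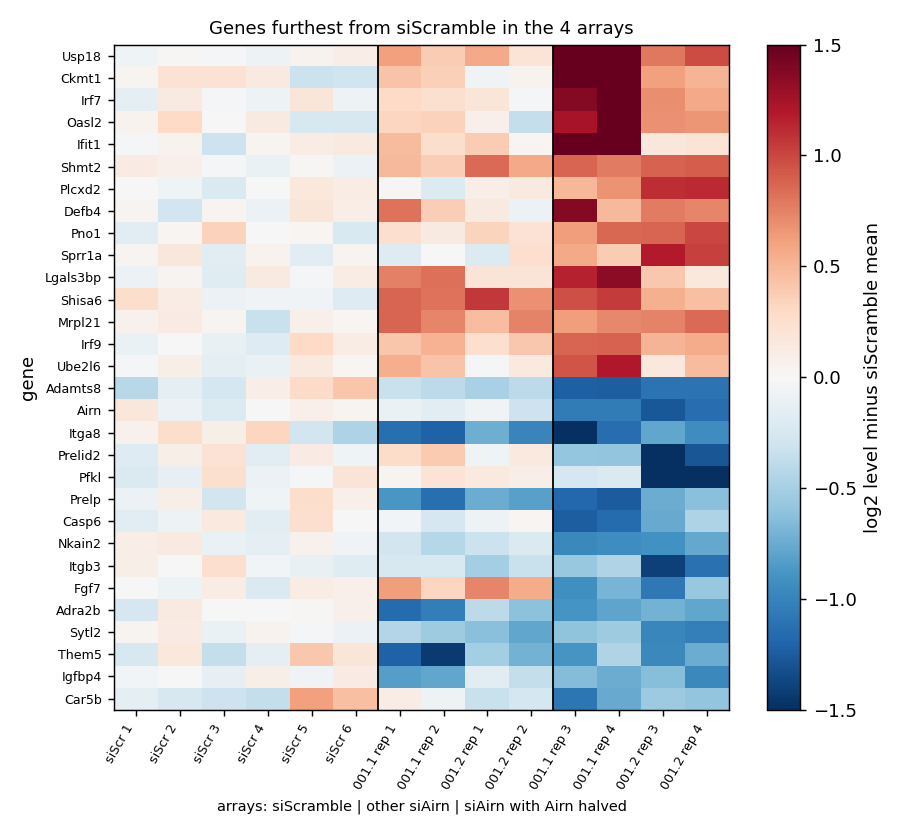
Log2 level minus the siScramble mean (colour, drawn at the limits of the scale beyond 1.5 either way) for the 15 apart genes furthest above and the 15 furthest below siScramble, on each of the 14 arrays. The columns are siScramble, the other siAirn arrays and the 4 chosen arrays from left to right, and rows such as Fgf7 show opposite colours in the last 2 blocks (0.56 and -0.82 on average).

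A difference between the reagents was called for many more genes than were apart. Within the 4 arrays, limma called 891 genes (4.41%) higher and 1088 (5.39%) lower with siAirn-001.2 than with siAirn-001.1 (9.8% either way), and 136 (0.674%) were called with at least a 2-fold difference. Without siScramble 5 and 6, which enter the estimate of the spread, the counts were 1243 and 1444. Of the 81 apart genes, 55 were not called between the reagents, 29 higher and 26 lower ones, which does not show that they were equal. Of the 41 apart and higher, 9 were called with siAirn-001.1 further from siScramble and 3 with siAirn-001.2. Of the 40 apart and lower, the numbers were 10 and 4. Each reagent rests on 2 arrays.

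Several of the genes that differed most lay on opposite sides of the controls with the 2 reagents. Igfbp5, a binding protein of insulin-like growth factors, was at 11.66 and 11.57 on the siAirn-001.1 arrays and 9.32 and 9.45 on the siAirn-001.2 pair, against 10.47 to 10.86 (median 10.71). It was lower with siAirn-001.2 by 2.23 ± 0.12 (SE, limma adjusted p = 3.18e-06). The glutamine transporter gene Slc38a3 was at 11.33 and 11.41, and 8.99 and 9.15, against 9.70 to 10.13 (median 9.84), and was lower by 2.30 ± 0.13 (adjusted p = 3.43e-06). Fbxo32, the muscle atrophy ubiquitin ligase atrogin-1, was at 9.76 and 9.93, and 7.88 and 8.21, against 8.51 to 8.82 (median 8.78), and was lower by 1.80 ± 0.13 (adjusted p = 1.75e-05). For all 3 the siAirn-001.1 arrays lay above every control and the siAirn-001.2 arrays below. The other siAirn arrays of both reagents were above siScramble for these genes, by 0.76, 1.06 and 0.88 on average.

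Ak4, a mitochondrial adenylate kinase induced by hypoxia, had the widest gap. It was at 9.47 and 9.43 on the siAirn-001.1 arrays and 6.63 and 7.14 on the siAirn-001.2 pair, against 8.41 to 9.38 (median 9.27), a difference of -2.56 ± 0.26 (SE, limma adjusted p = 0.000133). Hsd3b6, a steroid dehydrogenase, was at 9.27 and 9.61, and 7.11 and 7.68, but its controls ran from 6.49 to 8.35, and its call (-2.05 ± 0.51 SE, adjusted p = 0.0225) was lost without any 1 of the 4 siAirn arrays (adjusted p up to 0.18).

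On the other side, F3, tissue factor, which starts coagulation, was at 8.61 and 8.88 on the siAirn-001.1 arrays and 10.46 and 10.50 on the siAirn-001.2 pair, against 9.88 to 10.18 (median 10.13), 1.74 ± 0.12 higher with siAirn-001.2 (SE, limma adjusted p = 1.17e-05). H2afx, the histone variant phosphorylated at DNA breaks, was at 10.02 and 9.97, and 11.51 and 11.44, against 10.89 to 11.08 (median 11.02), higher by 1.48 ± 0.10 (adjusted p = 8.87e-06). Ttpa, the vitamin E transfer protein, was higher by 1.80 ± 0.18 (adjusted p = 0.00011), and Slfn1, of the Schlafen family, by 1.52 ± 0.16 (adjusted p = 0.000157). Hist2h3c2-ps, listed as a histone H3 pseudogene, was at 4.80 and 6.01 on the siAirn-001.1 arrays and 7.29 and 7.90 on the siAirn-001.2 pair, higher by 2.19 ± 0.29 (adjusted p = 0.000609). Many histone genes are near-identical copies, so the probes of Hist2h3c2-ps may read related transcripts. Whether those of the variant gene H2afx do was not tested.

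**Figure D5:**
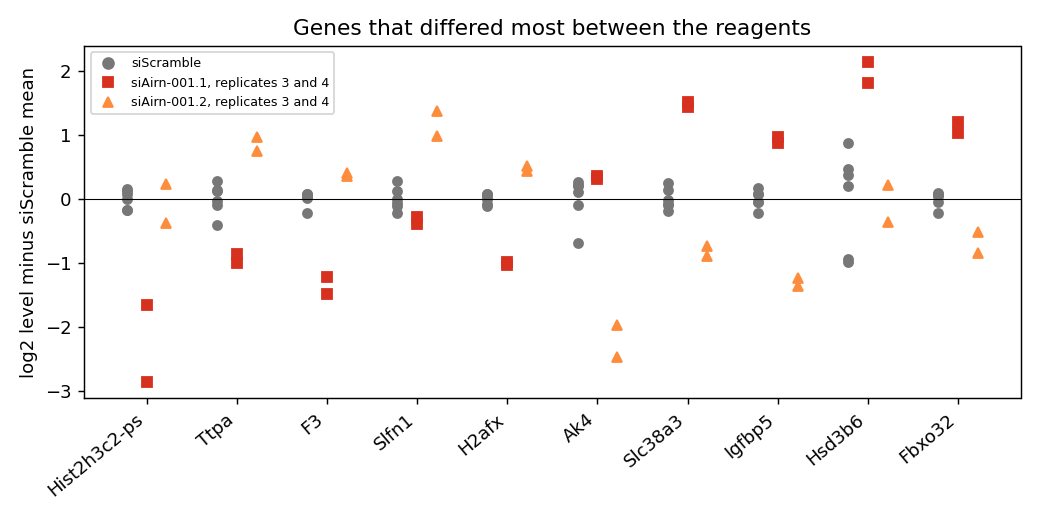
Log2 level minus the siScramble mean (vertical axis) of the 5 genes furthest each way between the reagents, with 1 point per array for siScramble, siAirn-001.1 replicates 3 and 4, and siAirn-001.2 replicates 3 and 4. For Igfbp5, Slc38a3 and Fbxo32 the reagents lie on opposite sides of all controls, with differences of -2.23, -2.30 and -1.80.

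Glycolysis and hypoxia-response genes were called between the reagents in 1 direction. Of 34 genes of glycolysis and the hypoxia response, 12 were lower (7 without siAirn-001.2 replicate 3) and 0 higher with siAirn-001.2, against 5.39% and 4.41% of all genes. Pfkl, the liver type phosphofructokinase, was at 10.08 and 10.12 on the siAirn-001.1 arrays and 8.49 and 8.76 on the siAirn-001.2 pair, against 10.12 to 10.58 (median 10.28). It was apart, but its siAirn-001.1 values lay at the lower edge of the controls, and it was lower with siAirn-001.2 by 1.48 ± 0.15 (SE, limma adjusted p = 0.000126). Egln3, an oxygen-sensing prolyl hydroxylase, was at 9.62 and 9.48, and 7.99 and 8.16, against 8.82 to 9.70, and Bnip3, a mitophagy receptor, at 10.40 and 10.36, and 8.55 and 9.35, against 9.91 to 10.61. Slc2a1, the glucose transporter GLUT1, was lower by 0.99 ± 0.13 (SE, limma adjusted p = 0.000451) and the lactate exporter gene Slc16a3 by 1.08 ± 0.16 (adjusted p = 0.00134). In the 4 arrays together, 2 of 34 were apart and lower (1 without siScramble 5 and 6), against 0.198% of all genes, and the median difference was -0.10, with 0.01 for siAirn-001.1 and -0.17 for siAirn-001.2. These list members, and those of the next paragraph, were picked out after their values were seen.

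Of 18 atrial cardiomyocyte markers, 8 were lower and 0 higher with siAirn-001.2 than with siAirn-001.1, and 10 of 42 sarcomere genes were lower and 0 higher, against 5.39% and 4.41% of all genes. Some other cardiac lists had calls both ways, with 9 of 31 calcium cycling genes lower and 1 higher, and 5 of 25 cardiac stress and hypertrophy markers lower and 3 higher. Others had lower calls alone. Of 32 potassium, sodium and pacemaker channels 8 were lower and 0 higher, and of 19 connexin and intercalated disc genes 5 and 0. The counts of lower genes fell to between 4 and 5 for the atrial markers and between 4 and 6 for the sarcomere genes without any 1 of the 4 siAirn arrays, and to 5 for calcium cycling without siAirn-001.2 replicate 3. That of the stress markers was 2 or 3 without siAirn-001.1 replicate 4 or either siAirn-001.2 array. The 1 higher calcium cycling gene lost its call without any 1 of the 4 siAirn arrays or without siScramble 2 or 5. Nppa was at 10.06 and 10.38 on the siAirn-001.1 arrays and 8.99 and 9.17 on the siAirn-001.2 pair, against 8.87 to 9.70 (median 9.55), a difference of -1.14 ± 0.24 (SE, limma adjusted p = 0.00861, up to 0.0826 without siAirn-001.1 replicate 4 or siAirn-001.2 replicate 3). Hcn4, the pacemaker channel, was at 9.90 and 9.98, and 8.39 and 8.21, against 8.47 to 9.44 (median 9.28), lower by 1.63 ± 0.28 (adjusted p = 0.00287). Pln, phospholamban, the brake on the calcium pump, was inside the control range of 12.77 to 13.08 on the siAirn-001.1 arrays and at 12.03 and 12.28 on the siAirn-001.2 pair, lower by 0.88 ± 0.12 (adjusted p = 0.000695). Kcnj5, which pairs with Kcnj3 in the atrial potassium channel and is not among the 18 atrial markers, was lower by 1.29 ± 0.10 (adjusted p = 1.94e-05). Kcnj3, which is among them, was not called (-0.34 ± 0.12 SE, limma adjusted p = 0.105). The list means of the atrial markers were 0.29 and 0.34 on the siAirn-001.1 arrays and -0.21 and -0.23 on the siAirn-001.2 pair, where siScramble ran from -0.11 on arrays 5 and 6 to 0.12 on array 1. Without siScramble 5 and 6, the number of lower atrial markers was 13 and that of lower sarcomere genes 20. Means of fibroblast markers were -0.03 to 0.05 on the 4 arrays and those of smooth muscle markers -0.13 to 0.01, inside the siScramble ranges of -0.30 to 0.16 and -0.13 to 0.07.

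Lists that marked the other siAirn arrays had medians closer to the control in the 4 arrays. Ribosome biogenesis genes (59 measured) had a median difference of -0.04 in the 4 arrays and of -0.45 in the other 4 siAirn arrays. In the 4 arrays 0 of them were apart, against 0.401% of all genes. Targets of p53 (33 measured) had -0.08 and -0.34. Oxidative phosphorylation genes (73 measured) had 0.10 and 0.19, with 0 apart in the 4 arrays. With no minimum fold, 10 of them lay above the siScramble range on all 4 arrays and 1 below. The shares of all genes were 2.64% and 2.78%. In the labelled contrast 17 of those 73 rose and 0 fell, against 2.15% and 1.97% of all genes. Without any 1 of siScramble 1 to 4, 8 or 9 rose, and without any 1 of the siAirn arrays other than siAirn-001.1 replicates 3 and 4 and siAirn-001.2 replicate 3, 10 or 11 did. These comparisons share their controls, and the difference between the first and second pair of replicates was not tested because the measured Airn level made the split.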

How the data were processed

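Total RNA from HL-1 cells was hybridised to 14 Affymetrix arrays as biotin-labelled cRNA after Trizol extraction, per the labels' protocols. The authors deposited log2 expression values, and the submitters' processing notes name RMA and limma with no version or role. The deposited table also holds the authors' p-values for all siAirn against siScramble, per the file headers, which were not used. Their log2 difference matched the values to within 5e-04. RMA makes array distributions nearly equal (medians 7.45 to 7.55), so a global shift cannot be seen. The array model and the annotation, with its build, were not given in the sources used here. Coordinates printed are those of the promoter windows in GRCm38.p6.

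The log2 values of 20193 genes, 1 row per symbol, were used unfiltered. No 2 arrays were identical, and pairs correlated at 0.988 to 0.998. In 23 rows the symbol had turned into a date, and these were left unnamed. Of the symbols, 17433 were current, 2048 older and 712 not found in RefSeq names. Differences from siScramble for the 4 arrays have no p-value because Airn chose the arrays. Their SE and the test between the reagents come from limma 3.58.1 (R 4.3.3) on 10 arrays with 3 group means, 7 residual and 5.74 prior degrees of freedom. The labelled contrast, the mean of both reagents against siScramble, used all 14 arrays (11 and 5.31). It includes the 4 arrays, so it is no independent support for genes described in them. Tests were two-sided with Benjamini-Hochberg adjustment over all genes and a threshold of 0.05. The median SE was 0.119 between the reagents and 0.073 in the labelled contrast, and the number of arrays limits the precision. The fit was tested on simulated data.

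Replicate numbers paired the reagents: deviations from the group means correlated at 0.32, 0.53, 0.36 and 0.43 for numbers 1 to 4. They did not pair siScramble (-0.43 to 0.23).

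The members and the 46 gene lists were chosen with earlier results of these data known. Lists are described by counts and medians, with no list test. Named genes are Airn and genes of its locus, Igf2r, Slc22a2 and Slc22a3 among them, the 15 apart genes furthest each way, the 2 furthest apart members of each list and the 5 furthest each way between the reagents, 53 in all, of which a few are not reported here. Symbols of predicted genes, microRNAs, small nucleolar RNAs, olfactory and vomeronasal receptors, and those ending in Rik, were passed over. Alternatives varied the controls, scaling, fold, weights, block and arrays left out.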

Additional observations from a re-analysis of the deposited data

Results flagged for a closer look

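The test between the reagents called 26 named genes, which makes the mean over the 4 arrays a mean of unequal values for them. Each value is the log2 level with siAirn-001.2 minus that with siAirn-001.1, on 2 arrays each, and limma's adjusted p was under 0.05 for all. Among the interferon-stimulated genes it was -1.59 for Ifit1, -1.08 for Usp18, -0.97 for Lgals3bp, -0.91 for Irf7, -0.76 for Ube2l6 and -0.70 for Oasl2. Among the other apart and higher genes it was -1.28 for Ckmt1, -0.51 for Shisa6, 0.53 for Plcxd2 and 0.64 for Sprr1a. Among the apart and lower genes it was -1.48 for Pfkl, -0.95 for Prelid2, -0.75 for Itgb3, -0.43 for Sytl2, 0.53 for Prelp and 0.58 for Casp6. Prelid2, a mitochondrial intermembrane protein gene, was at 7.59 and 7.59 on the siAirn-001.1 arrays and 6.39 and 6.90 on the siAirn-001.2 pair, against 7.99 to 8.40 with siScramble. Among the genes chosen for this contrast it was 2.19 for Hist2h3c2-ps, 1.80 for Ttpa, 1.74 for F3, 1.52 for Slfn1, 1.48 for H2afx, -2.56 for Ak4, -2.30 for Slc38a3, -2.23 for Igfbp5, -2.05 for Hsd3b6 and -1.80 for Fbxo32. With 1 array left out, 17 of the 26 passed in all 10 fits.

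In 4 genes 1 siScramble array lay far from the other 5. Ifit1 was at 6.25 on siScramble 3 against 6.54 to 6.70, Mrpl21 at 7.91 on siScramble 4 against 8.27 to 8.36, Adra2b at 8.75 on siScramble 1 against 9.00 to 9.13, and F3 at 9.88 on siScramble 1 against 10.11 to 10.18. Chance flags about 1 in 20 groups, and 106 were examined.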

How the results depend on the processing

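The numbers of apart genes, 41 higher and 40 lower, depend on the definition: they were 534 and 561 with no minimum fold, 4 and 4 with a minimum of 2-fold, and 81 and 62 with siScramble 3 and 4 alone as controls. With 1 reagent's arrays alone (chosen after seeing the data) they were 228 and 246 for siAirn-001.1 and 96 and 198 for siAirn-001.2. With 1 array left out they ranged from 31 to 62 higher, the highest without siAirn-001.1 replicate 3, and from 33 to 54 lower. Between the reagents, leaving out 1 array gave 338 to 1007 genes higher and 429 to 1205 lower. The counts moved most without siAirn-001.1 replicate 3 (338 and 723), siAirn-001.2 replicate 3 (366 and 429) and siAirn-001.2 replicate 4 (379 and 563), each of which leaves a reagent with 1 array, assumed to vary like the other groups. The replicate block, used because array 3 minus array 4 correlated between the reagents, gave 920 and 1133 and changed no other call among the named genes between the reagents. In the labelled contrast (435 and 398) the block gave 714 and 836, array weights 872 and 1055, the 8 arrays as 1 group 257 lower, and leaving out siScramble 5 and 6 (chosen after seeing the data) 599 lower. Left-out arrays gave 218 to 477 higher and 160 to 540 lower, both lowest without siScramble 4. They were 271 and 197 without siScramble 1 and 241 and 163 without siScramble 2. With arrays centred on their medians the splits were 54 and 31 apart, 737 and 1180 between the reagents and 460 and 267 in the labelled contrast. Of single genes' differences in the 4 arrays, 678 values under other settings moved by less than 1 SD and 11 by more. Of those between the reagents, 416 kept their side of the threshold and 26 lost the call. No value changed direction. The causes of these shifts were not tested beyond the smaller number of arrays.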

Other observations

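Cholesterol synthesis and lipogenesis genes also differed between the reagents within the 4 arrays. By limma, 11 of 34 were lower with siAirn-001.2 and 0 higher, against 5.39% and 4.41% of all genes. Of the 34, 0 were apart from siScramble, against 0.401% of all genes. The count of lower genes was 4 without siAirn-001.2 replicate 3, and 7 without siAirn-001.1 replicate 4 or siAirn-001.2 replicate 4. Mvd, mevalonate decarboxylase, was lower by 0.78 ± 0.15 (SE, limma adjusted p = 0.00522), Cyp51, lanosterol demethylase, by 0.73 ± 0.11 (adjusted p = 0.00143) and Srebf2, the transcription factor of sterol synthesis, by 0.63 ± 0.09 (adjusted p = 0.00104). Of 33 cardiac transcription factors, 11 were lower with siAirn-001.2 (7 without its replicate 3, 6 without its replicate 4) and 1 higher (0 without any 1 of the 4 siAirn arrays). Hopx was at 10.67 and 10.80 on the siAirn-001.1 arrays and 9.69 and 9.76 on the siAirn-001.2 pair, a difference of -1.01 ± 0.14 (SE, limma adjusted p = 0.000636), and Mef2d differed by -1.01 ± 0.14 (adjusted p = 0.000677).

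Growth factor lists held calls for genes higher with siAirn-001.2. Of 37 genes of TGF-beta and BMP signalling, 6 were higher and 2 lower with siAirn-001.2, against 4.41% and 5.39% of all genes, and the median difference between the reagents was 0.02. The count of higher genes was 3 without replicate 3 of either reagent, and that of lower genes was 0 or 1 without any 1 of the 4 siAirn arrays and 1 without any 1 of siScramble 1, 2, 4 and 5. Bmp4 was at 8.15 and 8.38 on the siAirn-001.1 arrays and 9.80 and 9.63 on the siAirn-001.2 pair, higher by 1.45 ± 0.13 (SE, limma adjusted p = 5.57e-05), and Tgfb2 was higher by 1.07 ± 0.24 (adjusted p = 0.0133, up to 0.097 without siAirn-001.1 replicate 3 or either siAirn-001.2 array). Of 20 feedback inhibitors of growth factor signalling, 6 were higher with siAirn-001.2 and 0 lower, and 2 or 3 were higher without any 1 of the 4 siAirn arrays. The members named here were picked out after their values were seen.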
